A study of Mus musculus with 36 samples.

Results

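The genes examined were 10 mouse genes that answer to mechanical load through serum response factor (SRF), through Yes-associated protein (YAP) or through the contractile actin system. They were Ankrd1, Acta2, Tagln, Cnn1, Myl9, Srf, Yap1, Amotl2, Lats2 and Thbs1, a list of names drawn from these pathways. The list holds no measured value, but it was drawn up with earlier results of these data known. All 10 were found by symbol among the 49315 genes listed in each library, and all 10 were among the 11558 genes that passed the filter on low counts. Polyadenylated RNA was sequenced from C2C12 cells, an established line of mouse myoblasts (muscle precursor cells) kept proliferating on coverslips in sealed experiment units. The design crossed 3 regimes (land, space with gravity, and space without it) with the absence or presence of nanoceria. Nanoceria are cerium oxide nanoparticles, given as a dispersion coated with fetal bovine serum at 100 µg/ml in a medium reservoir. The 6 groups held 3 libraries each, every library from its own experiment unit. All groups used the same cell line and the same flight hardware, and RNAlater was the fixative in every unit. The land units were run later, as a repeat of the flight timeline on the ground, so regime (space or land) and run cannot be told apart. The labels used here do not say how gravity was supplied in space, and the terms are theirs.

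Cells sense stretch, adhesion and the stiffness of their surroundings partly through actin. When actin is assembled into filaments, the cofactors MRTF leave monomeric actin, enter the nucleus and join SRF on short DNA elements called CArG boxes, which drive genes of the contractile cytoskeleton. Tension also keeps YAP and its relative TAZ out of reach of the Hippo kinases LATS1 and LATS2, and YAP then joins the TEAD factors, which bind a core GGAATG element. Myoblasts depend on both routes: SRF is needed for muscle gene expression, and YAP favours proliferation over fusion.

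The elements by which these factors bind DNA can be seen in the genes themselves. RefSeq promoters on GRCm38.p6, each a window of 300 bases around a start site, were at hand for 8 of the 10 genes; those of Tagln and Thbs1 were not used here. Both strands were searched, and no match lay over another. A strict CArG box (CC and GG with only A and T between) was found in 1.63% of all 32851 promoters and in those of Myl9 and Srf. The TEAD core, read as GGAATG or on the other strand as CATTCC, was found in 14.7% of all promoters and in those of Ankrd1, Amotl2, Lats2, Yap1 and Acta2. A match describes letters in the window and is not evidence of binding, and the absence of a match says only that these letters are not in it. Ankrd1 has the core at 2 places in its window, and the share of all promoters with 2 was not counted. Windows of Lats2 and Yap1 are not shown. The windows below are those of Srf and Myl9, with the element of SRF, and of Ankrd1, Amotl2 and Acta2, with the TEAD core. Each is read 5′ to 3′ on the gene's own strand, with the element in capitals:
Ankrd1, chr19:36120037-36120066, minus strand, element starting 210 bases before the start site: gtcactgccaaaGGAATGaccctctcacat
Ankrd1, chr19:36119950-36119979, minus strand, 123 bases before: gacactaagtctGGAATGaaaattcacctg
Amotl2, chr9:102717727-102717756, plus strand, 65 bases before: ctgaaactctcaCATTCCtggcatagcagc
Acta2, chr19:34255502-34255531, minus strand, 146 bases before: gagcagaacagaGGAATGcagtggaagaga
Srf, chr17:46556225-46556254, minus strand, 82 bases before: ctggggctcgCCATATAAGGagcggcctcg
Srf, chr17:46556205-46556234, minus strand, 62 bases before: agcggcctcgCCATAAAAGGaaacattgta
Myl9, chr2:156775293-156775322, plus strand, 161 bases before: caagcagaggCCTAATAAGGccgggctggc

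Levels are given as CPM, in which each count is divided by its library's total after adjustment of that total by TMM (trimmed mean of M values). Nanoceria replicate 3 of space with gravity was a library of only 23858 counts, and the other 17 held 2986628 to 11378178. In that smallest library 3 counts correspond to 35.7 CPM, and only Acta2 (3 counts) and Thbs1 (8 counts) reached them, so ranges and medians below leave it out unless stated. A further 6 abundant genes (Lars2 and 5 non-coding genes, picked with earlier results known) took 24.54% to 54.37% of the counts in the 5 larger libraries of space with gravity, 40.7% to 70.35% in space without gravity and 49.64% to 76.26% on land. That share went with regime in part, so a fit with the share as a covariate cannot fully tell share and regime apart. The myoblast genes Myf5 and Des were present in all 17 larger libraries, at 19.97 to 162.9 and 29.86 to 432.9 CPM. Myod1, the other classical determination factor, was counted in 9 of the 17 and reached at most 11.2 CPM. The fibroblast gene Lum and the epithelial gene Krt8 had no counts. Log2 fold changes are given with the standard error (SE) of the fit, and p-values are those of edgeR's quasi-likelihood test, adjusted over all 11558 genes with a threshold of 0.05.

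Per kilobase of exon, a scale that allows genes to be compared, Acta2 was the most abundant of the 10 with a median of 84.9 CPM per kb over 17 libraries. Its quartiles (49.4 to 119.3) overlapped those of Ankrd1, which followed at a median of 31.2 CPM per kb (20.7 to 58.3). Thbs1 came next at 21.2 CPM per kb, with quartiles of 15.4 to 53.9 that overlapped those of Ankrd1. Myl9 (10.6), Lats2 (10.1), Tagln (7.39) and Amotl2 (7.19) formed a middle group on that scale, whose ranges over libraries overlapped throughout. The factors themselves were scarce, with Srf at a median of 1.45 and Yap1 at 1.29 CPM per kb, and their ranges overlapped. Cnn1 was lowest, at a median of 0.186 CPM per kb, and had fewer than 3 counts in several libraries.

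**Figure D1:**
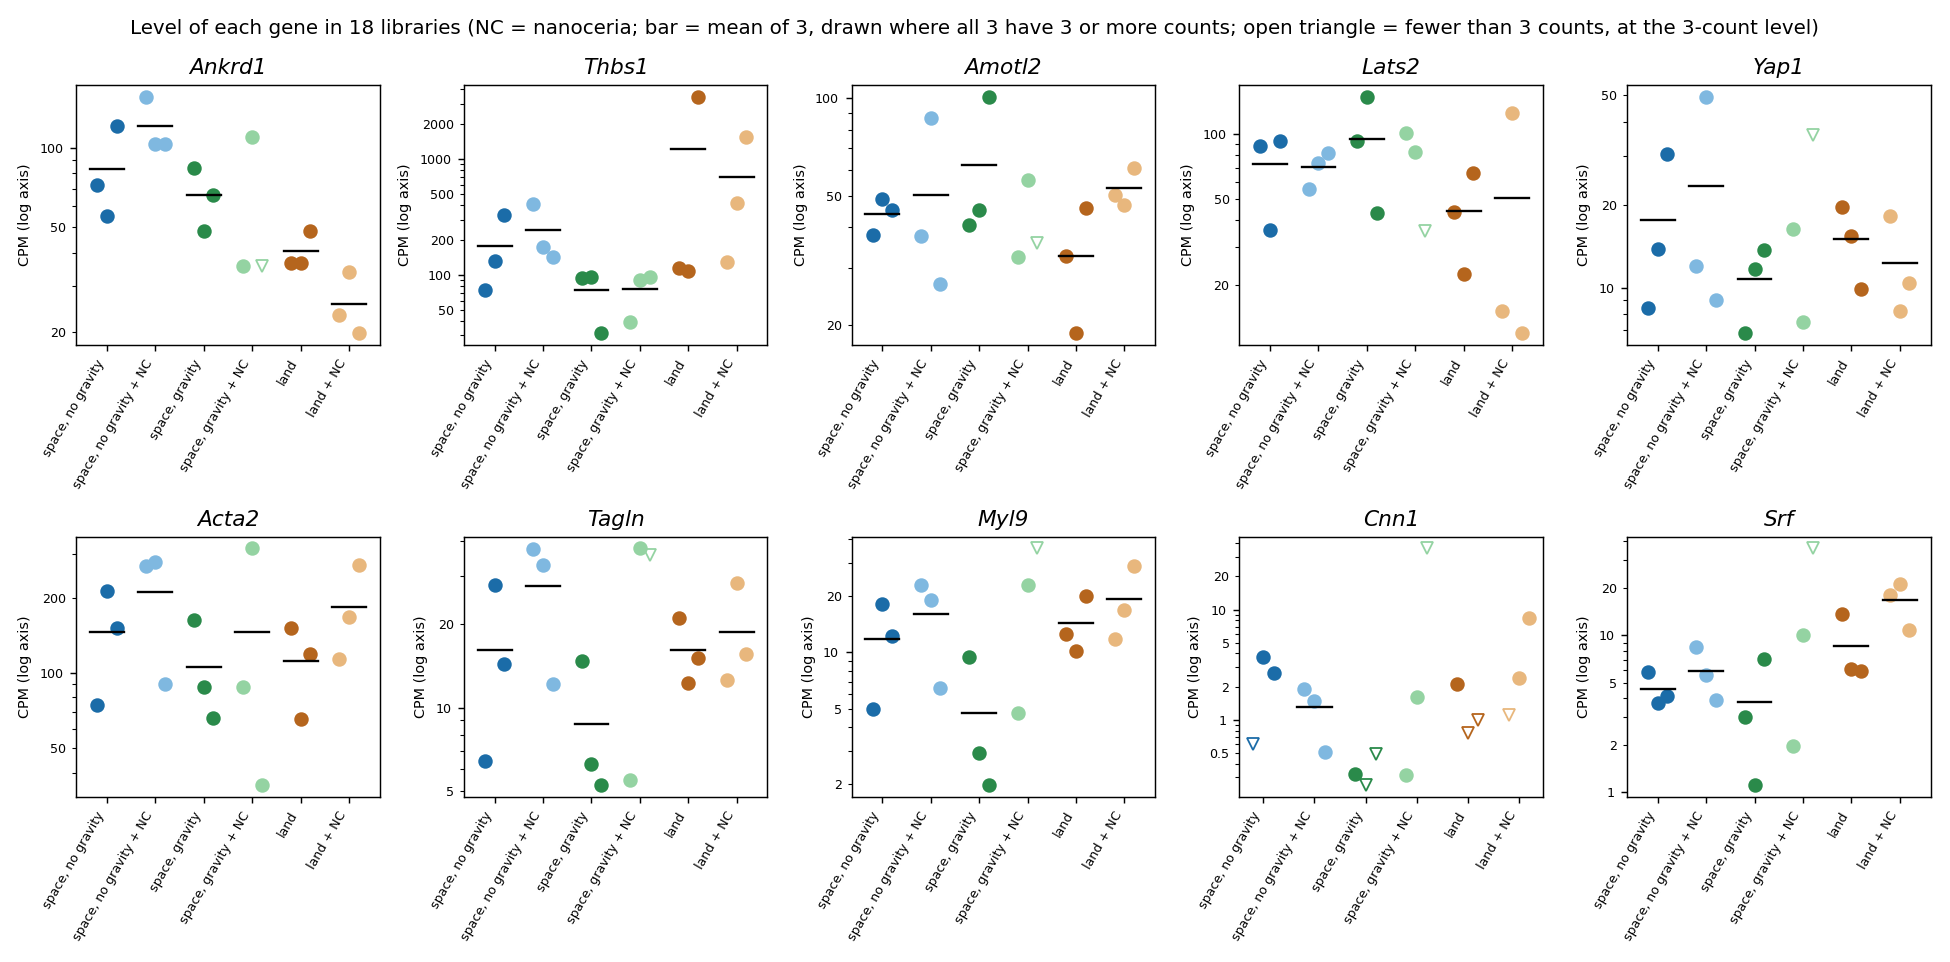
Level of each of the 10 genes in every library, as CPM on a log axis, for the 6 groups on the horizontal axis (NC, nanoceria). Dots are libraries, bars are means of 3 libraries, drawn where all 3 had at least 3 counts, and open triangles mark fewer than 3 counts at the level of 3. For Ankrd1 the 6 land libraries lie below the 6 of space without gravity, and the highest Thbs1 value is 3456 CPM on land.

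Ankrd1 encodes a muscle ankyrin repeat protein of the sarcomere and nucleus that is induced by stretch and is a standard readout of YAP. It lies on GRCm38 chr19:36111965-36119844 on the minus strand (ENSMUSG00000024803). In space without gravity it stood at 72.2, 55.0 and 121.2 CPM in the untreated libraries and at 156.1, 103.6 and 102.9 CPM with nanoceria. With gravity in space the untreated libraries held 83.9, 48.2 and 66.0 CPM, and those with nanoceria 35.8, 109.4 and, from 2 counts, 23.8 CPM. Land libraries held 36.5, 36.6 and 48.3 CPM untreated and 23.3, 33.9 and 19.9 CPM with nanoceria. Every library of space without gravity was above every land library, whereas the libraries of space with gravity overlapped both of the other regimes.

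Ankrd1 was 3.10-fold higher in space without gravity than on land (log2 fold change 1.63 ± 0.39 SE, edgeR adjusted p 0.0277, higher in 6 of 6 libraries). It was the only one of the 10 genes past the threshold in that comparison, where 5.25% of all genes passed, 2.81% higher and 2.44% lower. Ranges that do not overlap, as those of Ankrd1, were seen for 2.91% of all genes in the same libraries. The group means were 82.8 ± 34.3 CPM (SD, n = 3) untreated and 120.9 ± 30.5 CPM (SD, n = 3) with nanoceria in space without gravity, against 40.5 ± 6.80 and 25.7 ± 7.29 CPM (SD, n = 3 each) on land. For space with gravity against land the log2 fold change of Ankrd1 was 0.97 ± 0.39 (SE) with an edgeR adjusted p of 0.0976, which did not pass, and for gravity withdrawn in space it was 0.66 ± 0.39 (SE, edgeR adjusted p 0.923). The call against land was not firm: of 18 fits that each left out 1 library, 11 kept Ankrd1 past the threshold, with log2 fold changes of 1.46 to 1.78 and an edgeR adjusted p of up to 0.0881. The call ended without untreated replicate 1 or 3 or nanoceria replicate 1 or 3 of space without gravity, and without untreated replicate 1 or 2 or nanoceria replicate 3 of land. With the share of the 6 abundant genes as a covariate the log2 fold change was 1.66 and the edgeR adjusted p 0.129.

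Thbs1 encodes thrombospondin-1, a secreted matrix glycoprotein that activates latent TGF-beta and is a target of both YAP and SRF. It lies on GRCm38 chr2:118111876-118127133 on the plus strand (ENSMUSG00000040152). In space with gravity it was at 93.2, 95.4 and 31.4 CPM untreated and at 39.3, 90.2 and, from 8 counts, 95.3 CPM with nanoceria. In space without gravity the values were 74.6, 132.5 and 327.4 CPM untreated and 413.0, 173.0 and 142.7 CPM with nanoceria. On land they were 115.3, 107.6 and 3456 CPM untreated and 128.8, 415.7 and 1551 CPM with nanoceria. All land libraries were above the 5 larger libraries of space with gravity. Among the land libraries replicate 3 of each group was far above the rest.

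Thbs1 was 12.7-fold lower in space with gravity than on land (log2 fold change −3.66 ± 0.87 SE, edgeR adjusted p 0.0146). Thbs1 in each of the 5 larger libraries of space with gravity was below every land library. It was the only one of the 10 genes past the threshold there, in a comparison where 14.0% of all genes passed, 7.22% higher and 6.74% lower. Non-overlapping ranges over the same larger libraries were seen for 7.82% of all genes. For space without gravity against land the log2 fold change was −2.15 ± 0.81 (SE, edgeR adjusted p 0.113), and the ranges overlapped. These comparisons share the land libraries, so their values for Thbs1 are not separate evidence. The size of the difference turned on 1 land library: without untreated replicate 3 of land, which held 10518 counts of Thbs1, the log2 fold change was −1.91 with an edgeR adjusted p of 0.0496 for space with gravity, and −0.39 with 0.722 for space without gravity. Of 18 fits that each left out 1 library, 17 kept the call for space with gravity, and it ended without nanoceria replicate 1 of space with gravity (−3.48, edgeR adjusted p 0.0570). The call also ended with limma voom (−1.59, adjusted p 0.142) and with the share of the 6 abundant genes as a covariate (−5.20, edgeR adjusted p 0.113).

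The land libraries high in Thbs1 were also high in Col1a1, the fibrillar collagen gene taken as a fibroblast marker. Col1a1 was at 876.7 CPM in untreated replicate 3 and at 1750 CPM in nanoceria replicate 3, against 15.9 to 107.7 CPM in the other land libraries. Col1a1 was itself lower in space with gravity than on land (log2 fold change −4.82 ± 1.14 SE, edgeR adjusted p 0.0140). The 5 fibroblast markers summed to 27.9 to 1756 CPM on land, 5.43 to 39.5 CPM in space with gravity and 19.5 to 126.1 CPM in space without gravity. At the top of these ranges nearly all of the sum was Col1a1, which reached 1750, 37.1 and 123.3 CPM in the same order. Of these 5, 3 were tested, and Col1a1 alone was called in space with gravity against land. Dcn (−1.30 ± 0.66 SE, edgeR adjusted p 0.185) and Pdgfra (−0.80 ± 0.78 SE, edgeR adjusted p 0.505) were not. Lum was at 0 throughout. In bulk RNA, fewer cells of a type and less RNA per cell cannot be told apart. The part of other cell types in the Thbs1 difference was not tested.

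**Figure D2:**
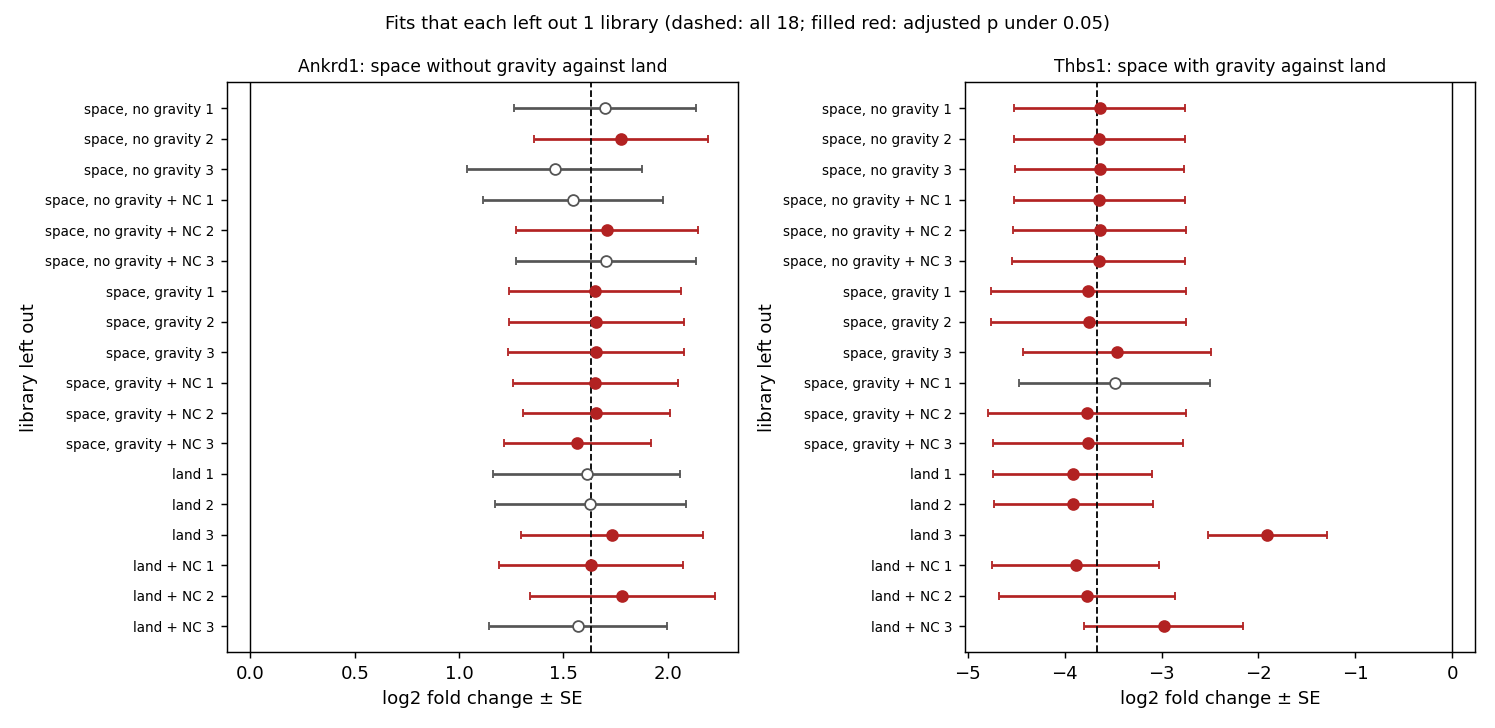
Log2 fold change with its standard error (horizontal axis) in fits that each left out the library named on the vertical axis, for Ankrd1 in space without gravity against land (left) and Thbs1 in space with gravity against land (right). Red filled dots passed the adjusted threshold: 11 of 18 for Ankrd1 and 17 of 18 for Thbs1, whose value moved to −1.91 without untreated replicate 3 of land.

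Amotl2 and Lats2 are YAP targets that act back on the pathway. Amotl2 encodes angiomotin-like 2, a junctional protein that holds YAP in the cytoplasm (chr9:102716672-102733418, plus strand). It was at 37.9, 49.0 and 45.1 CPM untreated and at 37.6, 86.9 and 26.8 CPM with nanoceria in space without gravity. With gravity in space it was at 40.6, 45.2 and 100.9 CPM untreated and at 32.3, 56.1 and, from 2 counts, 23.8 CPM with nanoceria. The land values were 32.7, 18.9 and 46.0 CPM untreated and 50.4, 46.9 and 60.9 CPM with nanoceria. The regimes overlapped throughout, and the regime medians lay between 41.5 and 46.4 CPM. The log2 fold change of Amotl2 was 0.26 ± 0.39 (SE) for space with gravity against land, 0.18 ± 0.39 (SE) for space without gravity against land and −0.08 ± 0.39 (SE) for gravity withdrawn, with edgeR adjusted p of 0.679, 0.810 and 1.000. The 95% intervals of the former pair ran from −0.56 to 1.09 and from −0.63 to 0.996, so a difference of about 2-fold in either space regime was at the edge of what these libraries allow. All 3 signs flipped under DESeq2's size factors (−0.06, −0.04 and 0.01).

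Lats2 encodes a kinase that phosphorylates and inactivates YAP (chr14:57642077-57758388, minus strand). It was at 88.4, 36.1 and 93.4 CPM untreated and at 55.6, 73.9 and 81.9 CPM with nanoceria in space without gravity. Space with gravity gave 93.7, 149.4 and 43.3 CPM untreated and 101.7, 83.2 and 0 CPM with nanoceria, the last being the smallest library. Land gave 43.5, 22.5 and 66.4 CPM untreated and 15.2, 125.2 and 12.0 CPM with nanoceria. The land libraries spanned both the lowest values and 1 of the highest, from nanoceria replicate 2. For Lats2 the log2 fold change was 0.77 ± 0.62 (SE) for space with gravity against land and 0.59 ± 0.62 (SE) for space without gravity against land, with edgeR adjusted p of 0.411 and 0.581. Without that land library they were 1.76 (edgeR adjusted p 0.0527) and 1.57. In the annotation, 41.2% of the 50-base stretches of Lats2 transcripts occur also in Gm49361, which is not among the genes of these files, and 332 of its 7303 exon bases overlap Xpo4 on the same strand. How reads of such stretches were counted is not given in the sources used here, and the level of Lats2 is uncertain to that extent.

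Yap1 encodes YAP, the coactivator of this branch, whose activity is set mainly by its location in the cell and not by the amount of its RNA (chr9:7931999-8004596, minus strand). Its levels were 8.42, 13.8 and 30.6 CPM untreated and 11.9, 49.4 and 8.97 CPM with nanoceria in space without gravity. In space with gravity they were 6.83, 11.7 and 13.7 CPM untreated and 16.3, 7.49 and 0 CPM with nanoceria. On land they were 19.7, 15.3 and 9.86 CPM untreated and 18.1, 8.21 and 10.4 CPM with nanoceria. Only a pair of libraries of space without gravity exceeded the land range, and the regime medians were 12.9, 11.7 and 12.9 CPM. The log2 fold change was −0.35 ± 0.50 (SE) for space with gravity against land, 0.58 ± 0.49 (SE) for space without gravity against land and 0.93 ± 0.50 (SE) for gravity withdrawn, with edgeR adjusted p of 0.670, 0.485 and 0.902. Without nanoceria replicate 2 of space without gravity the positive values of Yap1 were smaller, at 0.03 against land and 0.34 for gravity withdrawn.

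Acta2 and Tagln are the classical contractile targets of SRF and its cofactors. Acta2 encodes smooth muscle alpha-actin, which C2C12 myoblasts express before they differentiate, and it was the most abundant of the 10 genes per kilobase (chr19:34241090-34255336, minus strand). It was at 74.6, 212.4 and 151.5 CPM untreated and at 266.9, 277.7 and 90.1 CPM with nanoceria in space without gravity. With gravity it was at 163.0, 87.6 and 65.9 CPM untreated and at 88.0, 315.0 and, from 3 counts, 35.7 CPM with nanoceria. On land it was at 151.2, 65.4 and 119.6 CPM untreated and at 114.0, 167.5 and 269.5 CPM with nanoceria. Every group spanned a difference of about 2-fold or more between its own libraries, and no regime stood apart. The log2 fold change of Acta2 was −0.18 ± 0.50 (SE) for space with gravity against land and 0.29 ± 0.50 (SE) for space without gravity against land, with edgeR adjusted p of 0.843 and 0.759. Without nanoceria replicate 2 of space with gravity, its highest library, the former was −0.75.

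Tagln encodes transgelin, which binds and crosslinks actin filaments (chr9:45929619-45936058, minus strand). In space without gravity it was at 6.42, 27.7 and 14.4 CPM untreated and at 37.4, 32.7 and 12.2 CPM with nanoceria. With gravity it was at 14.7, 6.27 and 5.27 CPM untreated and at 5.46, 37.6 and 0 CPM with nanoceria. Its land values were 21.1, 12.3 and 15.1 CPM untreated and 12.6, 28.2 and 15.6 CPM with nanoceria. Of the 5 larger libraries of space with gravity 3 were under the land range, and nanoceria replicate 2 was above it. For Tagln the log2 fold change was −0.47 ± 0.54 (SE) for space with gravity against land and 0.27 ± 0.52 (SE) for space without gravity against land, with edgeR adjusted p of 0.578 and 0.791. Without that replicate the value in space with gravity was −1.39 (edgeR adjusted p 0.0972), and with the share of the 6 abundant genes as a covariate it was 0.35, the other way. On the opposite strand 1241 of its 1988 exon bases overlap Gm48529, which held 51 counts over all libraries against 1800 for Tagln. Use of strand in counting is not given in the sources used here.

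Myl9 encodes the regulatory light chain of non-muscle and smooth muscle myosin, whose phosphorylation sets contractile force (chr2:156775420-156781658, plus strand). It was at 5.01, 18.1 and 12.3 CPM untreated and at 22.9, 18.9 and 6.43 CPM with nanoceria in space without gravity. With gravity it was at 9.41, 2.92 and 1.98 CPM untreated and at 4.75, 22.9 and 0 CPM with nanoceria. On land it was at 12.5, 10.2 and 20.0 CPM untreated and at 11.8, 16.8 and 28.97 CPM with nanoceria. Apart from nanoceria replicate 2, the libraries of space with gravity lay below all land libraries. The fitted value of Myl9 on the log2 scale was −1.11 ± 0.55 (SE, edgeR adjusted p 0.169) for that comparison and −0.26 ± 0.53 (SE, edgeR adjusted p 0.798) for space without gravity against land. Without nanoceria replicate 2 of space with gravity the former was −1.83 (edgeR adjusted p 0.0560). That fit left its group replicate 1 (4.75 CPM) and the smallest library, with 0 counts of Myl9.

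Cnn1 encodes calponin 1, an actin-binding inhibitor of myosin that marks differentiated smooth muscle (chr9:22099216-22109630, plus strand). Over all 18 libraries it had at most 26 counts, in nanoceria replicate 3 of land (8.46 CPM). The other 16 of the larger libraries held 0 to 22 counts and 0 to 3.69 CPM. Its log2 fold change for space with gravity against land was −1.94 ± 1.02 (SE, edgeR adjusted p 0.201), and for space without gravity against land it was −0.12 ± 0.94 (SE, edgeR adjusted p 0.955). At these counts, the 95% interval for space with gravity against land reached from −4.07 to 0.20.

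Srf encodes the transcription factor itself, and its own promoter carries both CArG boxes shown above (gene at chr17:46546839-46556162, minus strand). In space without gravity it was at 5.82, 3.69 and 4.10 CPM untreated and at 8.44, 5.57 and 3.89 CPM with nanoceria. In space with gravity it was at 3.03, 1.12 and 7.08 CPM untreated and at 1.98, 10.0 and 0 CPM with nanoceria. On land it was at 13.6, 6.14 and 5.92 CPM untreated and at 18.1, 21.2 and 10.7 CPM with nanoceria. The land median was 12.2 CPM, against 4.83 CPM in space without gravity and 3.03 CPM in space with gravity, but each space regime had at least 1 library inside the land range. The log2 fold change of Srf was −1.41 ± 0.51 (SE, edgeR adjusted p 0.0706) for space with gravity against land and −1.20 ± 0.49 (SE, edgeR adjusted p 0.142) for space without gravity against land, neither past the threshold. For space with gravity, Srf passed with DESeq2's size factors in edgeR (−1.72, adjusted p 0.0314), in the DESeq2 test (−1.72, adjusted p 0.0136) and with limma voom (−1.97, adjusted p 0.0131). It also passed in 2 of 18 edgeR fits that left out 1 library, among them that without nanoceria replicate 2 of space with gravity (−2.14, adjusted p 0.0283). Srf did not pass with the share of the 6 abundant genes as a covariate (−0.77), or without nanoceria replicate 1 of space with gravity (−1.11). Counts of Srf were small, between 13 and 106 in the 17 larger libraries.

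**Figure D3:**
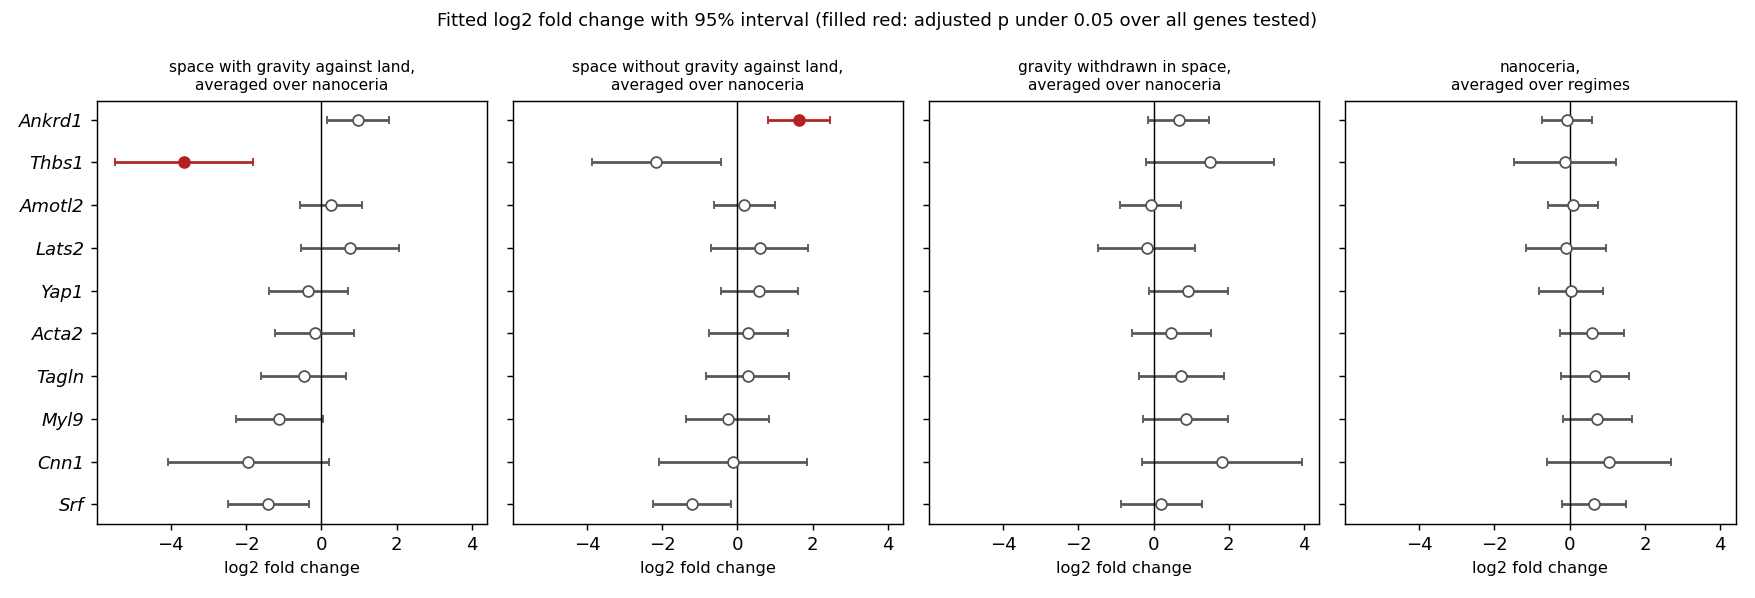
Fitted log2 fold changes (horizontal axis) with 95% intervals for the 10 genes in the 4 averaged comparisons, each panel named by its comparison. Red filled dots passed the adjusted threshold, which were Thbs1 in space with gravity against land (−3.66) and Ankrd1 in space without gravity against land (1.63).

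Seen together, the 10 genes had a median log2 fold change of −0.41 for space with gravity against land, where the median over all genes was −0.04, and 3 of the 10 had an unadjusted p under 0.05 against 31.9% of all genes. For space without gravity against land their median was 0.23 against −0.02 over all genes, and again 3 of the 10 had an unadjusted p under 0.05 against 24.7%. These shares are near those of all genes. Neither median was stable. That for space with gravity was −1.07 without its nanoceria replicate 2, −0.75 with DESeq2's size factors and 0.19 with the covariate. That for space without gravity was −0.04 without its nanoceria replicate 2 and 0.006 with DESeq2's size factors. Under DESeq2's size factors the medians over all genes moved to −0.39 and −0.28, so higher and lower are relative to the scaling, and the genes called in space with gravity against land changed from 834 higher and 779 lower to 628 higher and 1558 lower.

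The comparison of gravity withdrawn in space asked whether the 10 genes differed between flight units without and with gravity, where the run was the same. None of them passed the threshold, as was the case for all genes (0% called). Of the 10, 0 had an unadjusted p under 0.05, against 5.85% of all genes, and the DESeq2 test called 11 genes in all and none of the 10. Of the 10 genes 8 had a positive log2 fold change, as did 52.91% of all genes, with a median of 0.70 against 0.04. The median was 0.33 with the share of the abundant genes as a covariate, 0.49 without nanoceria replicate 2 of space without gravity and 1.095 without nanoceria replicate 2 of space with gravity. The values were 1.82 ± 1.01 (SE) for Cnn1, 1.51 ± 0.81 (SE) for Thbs1, 0.85 ± 0.54 (SE) for Myl9, 0.74 ± 0.54 (SE) for Tagln, 0.47 ± 0.50 (SE) for Acta2 and 0.21 ± 0.51 (SE) for Srf, with edgeR adjusted p of 0.902 to 1.000. Tagln was at 1.67, Myl9 at 1.58, Acta2 at 1.06 and Srf at 0.97 without nanoceria replicate 2 of space with gravity. That fit left its group replicate 1 and the smallest library. With all libraries fitted, Amotl2 and Lats2 were at −0.08 ± 0.39 and −0.18 ± 0.62 (SE). This comparison is the difference of the other pair by construction, so it adds no separate libraries. CPM ranges without overlap were seen for none of the 10 and for 0.658% of all genes. For Thbs1 the 95% interval reached from −0.19 to 3.21, which leaves room for a large difference that did not pass at this replication.

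The comparison of nanoceria, averaged over the 3 regimes, called none of the 10 genes and 0% of all genes with edgeR, with 0 of the 10 and 6.54% of all genes at an unadjusted p under 0.05, and the DESeq2 test called 1 gene in all. The contractile genes and Srf had positive values, 0.59 ± 0.41 (SE) for Acta2, 0.67 ± 0.43 (SE) for Tagln, 0.73 ± 0.44 (SE) for Myl9, 1.05 ± 0.78 (SE) for Cnn1 and 0.64 ± 0.41 (SE) for Srf, with edgeR adjusted p of 0.783 to 0.832. These values were smaller without nanoceria replicate 2 of space with gravity, a fit that left its group replicate 1 and the smallest library. They were then 0.19 for Acta2, 0.05 for Tagln, 0.24 for Myl9, 0.58 for Cnn1 and 0.14 for Srf. With all libraries fitted, the other 5 lay between −0.13 for Thbs1 and 0.08 for Amotl2. Acta2 had a median of 119.6 CPM over 9 untreated libraries (65.4 to 212.4) and of 217.2 CPM over 8 with nanoceria (88.0 to 315.0). Srf had medians of 5.82 and 9.24 CPM in the same sets. The untreated and nanoceria libraries overlapped widely for both. A nanoceria effect that differed between regimes was called for 0% of genes (6.14% at an unadjusted p under 0.05), and for the 10 genes the edgeR adjusted p ran from 0.909 to 1.000. The DESeq2 test called 8 genes.

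Although few of the 10 differed between regimes, the contractile genes varied together from library to library. Over the 17 larger libraries, Pearson's r of log2 CPM was 0.867 between Tagln and Myl9, 0.861 between Acta2 and Tagln, 0.826 between Acta2 and Myl9 and 0.797 between Acta2 and Cnn1. All 4 were high in nanoceria replicate 2 of space with gravity. They were also high in nanoceria replicates 1 and 2 and untreated replicate 2 of space without gravity. In the second of these Cnn1 rested on 4 counts (1.49 CPM). All but Tagln were high in nanoceria replicate 3 of land. All 4 were above their medians over the 17 libraries in nanoceria replicate 2 of land. They were low in untreated replicates 2 and 3 of space with gravity. Srf went with them less closely, with r of 0.508 to Myl9 and 0.318 to Acta2. The YAP-linked genes were not a block: r was 0.534 between Ankrd1 and Lats2, −0.144 between Ankrd1 and Thbs1, and 0.230 between Yap1 and Amotl2. Nor was Thbs1 apart from the contractile genes, with r of 0.688 to Myl9, 0.465 to Cnn1, 0.418 to Acta2 and 0.411 to Tagln. Within the contractile genes the lowest r were 0.673 between Cnn1 and Myl9 and 0.652 between Tagln and Cnn1. The widest opposition was between Srf and Lats2 (r −0.475). Points share the library, its depth and its scaling, and libraries of a group are not independent of their regime, so these are descriptions.

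**Figure D4:**
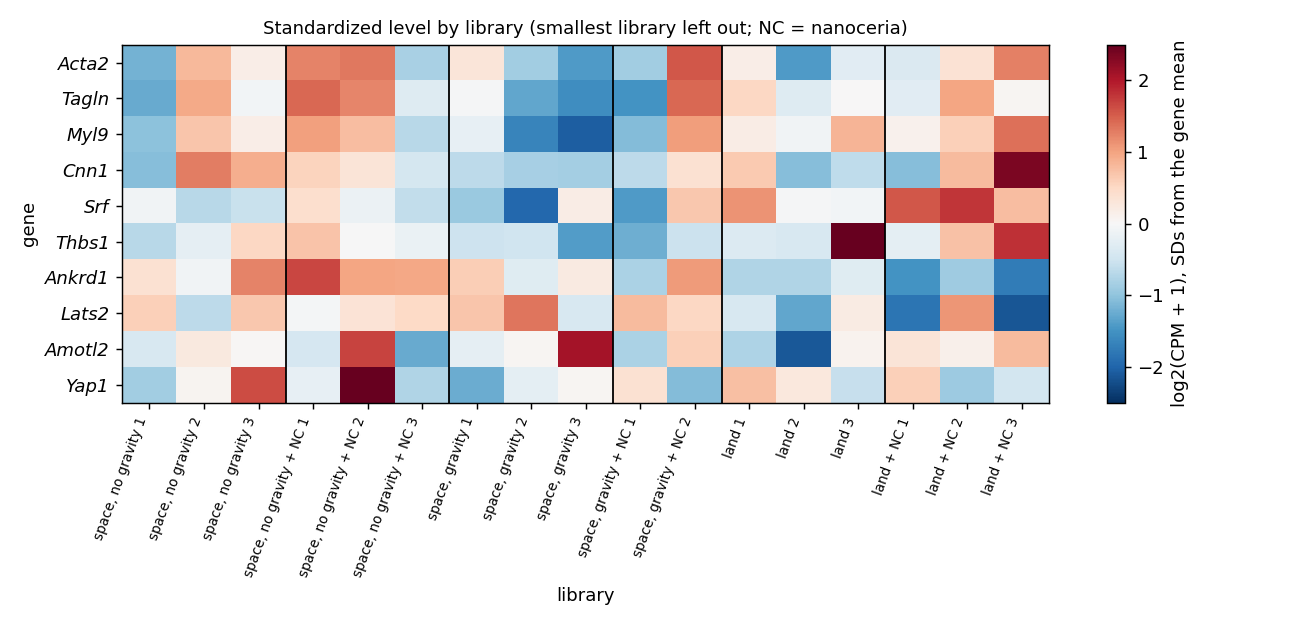
Level of the 10 genes (vertical axis) in 17 libraries (horizontal axis, grouped by regime and nanoceria, black lines between groups; the smallest library is left out), as log2(CPM + 1) in standard deviations from each gene's mean. Red is above and blue below the mean; Acta2, Tagln, Myl9 and Cnn1 share their high and low libraries, with r of 0.652 to 0.867 between them.

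Among 6118 other genes whose average log2 CPM was 3 or more, the patterns most like the mean of Acta2, Tagln, Cnn1 and Myl9 over the 17 libraries were those of Ccn2 (r 0.937), Csrp1 (0.909), Tcta (0.857), Tpm2 (0.839) and Actg2 (0.823). Ccn2 encodes connective tissue growth factor, Csrp1 a LIM protein of the actin cytoskeleton, Tpm2 beta-tropomyosin and Actg2 smooth muscle gamma-actin. Ccn2 had medians of 18.5 CPM in space without gravity, 3.88 CPM in space with gravity and 15.6 CPM on land, with ranges of 3.41 to 32.8, 2.31 to 43.2 and 9.72 to 30.9 CPM that overlapped. For the mean of Ankrd1, Amotl2, Lats2 and Thbs1, which are not alike among themselves, the nearest patterns were those of Cirbp (r 0.815) and Zcchc24 (0.812). The best of 6118 r values over 17 libraries will be high by selection alone, so no likeness is read from their size. Markers of smooth muscle and pericytes, cells that also express Acta2, Tagln, Myl9 and Cnn1, summed over 5 genes to 9.48 to 56.6 CPM in space without gravity, 4.28 to 21.3 CPM in space with gravity and 5.37 to 36.3 CPM on land. Of these 5, 3 were tested, and they did not move together. For space with gravity against land Lmod1 was at −3.24 ± 1.02 (SE, edgeR adjusted p 0.0429), Smtn at −1.13 and Rgs5 at 3.70, of which Lmod1 alone passed. For space without gravity against land Rgs5 was at 6.40 ± 1.73 (SE, edgeR adjusted p 0.0440), Smtn at 0.09 and Lmod1 at −1.46, of which Rgs5 alone passed. Lmod1 was scarce, with 120 counts over the 17 libraries. Its medians were 0.258 CPM in space with gravity and 0.922 CPM on land, where it ranged from 0.370 to 14.65 CPM. Rgs5 was counted in 9 of the 17 libraries and reached at most 0.370 CPM on land. Myocd was at 0 in space without gravity and on land, and Myh11 at 0 on land. The 9 markers of differentiating myocytes and myotubes summed to 6.90 to 108.3 CPM on land. In space with gravity they summed to 3.13 to 14.7 CPM, and in space without gravity to 2.88 to 21.9 CPM. Of these 9, 3 were tested (Acta1, Tnnt2 and Tnnc1), and 0 were called in the 4 averaged comparisons. The part of either marker set in the values of the contractile genes was not tested.

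The wider pathways were described by lists that leave out the 10 genes and were chosen with earlier results of these data known. Of 32 further YAP and TAZ targets, 31 were tested. For space with gravity against land 1 was called higher and 2 lower, in a comparison where 14.0% of all genes passed (7.22% higher and 6.74% lower), with a list median of −0.47 against −0.04 over all genes. Lats1, which encodes the partner kinase of LATS2, was higher (2.90 ± 0.69 SE, edgeR adjusted p 0.0143), at a median of 40.8 CPM in space with gravity (3.03 to 90.7) and 5.36 CPM on land (3.58 to 6.74), so the lowest library of space with gravity was below every land library. Igfbp3, an insulin-like growth factor binding protein, was lower (−2.38 ± 0.56 SE, edgeR adjusted p 0.0140), as was Gas6, the ligand of the receptor tyrosine kinase AXL (−2.89 ± 0.81 SE, edgeR adjusted p 0.0274). For space without gravity against land, where 5.25% of all genes passed, 0 were called higher and the same pair lower, Gas6 at −4.18 ± 0.84 (SE, edgeR adjusted p 0.0165) and Igfbp3 at −1.93 ± 0.53 (SE, edgeR adjusted p 0.0420). Gas6 on land ranged from 3.41 to 102.9 CPM, and without nanoceria replicate 3 of land its value in space with gravity was −1.29 (edgeR adjusted p 0.168) and in space without gravity −2.59 (0.0531).

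Of 43 further SRF and MRTF targets, 39 were tested, with 1 called higher and 3 lower for space with gravity against land, against 14.0% of all genes, and a median of −0.62 against −0.04 over all genes. Fhl1, a LIM protein of the muscle sarcomere, was higher in space with gravity (1.48 ± 0.37 SE, edgeR adjusted p 0.0175) and in space without gravity (1.64 ± 0.37 SE, edgeR adjusted p 0.0221). The immediate early genes Junb and Egr1, which SRF induces within minutes of a stimulus, were lower in space with gravity, Junb at −1.50 ± 0.37 (SE, edgeR adjusted p 0.0162) and Egr1 at −2.66 ± 0.74 (SE, edgeR adjusted p 0.0263). The third was Cnn3, an acidic calponin (−1.97 ± 0.59 SE, edgeR adjusted p 0.0344), named after its values were seen. In space without gravity, where 5.25% of all genes passed, Junb alone of them was called lower (−1.42 ± 0.36 SE, edgeR adjusted p 0.0333). Junb had medians of 10.9 CPM in space with gravity, 16.5 CPM in space without gravity and 40.9 CPM on land. Fits that left out 1 library ended the call of Cnn3 in 9 of 18 cases and that of Egr1 in 5.

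Of 28 Hippo and TEAD components 27 were tested, with Lats1 called higher and Wtip, an Ajuba-family LIM protein, lower in space with gravity than on land (−1.49 ± 0.46 SE, edgeR adjusted p 0.0380), against 14.0% of all genes, and none called in space without gravity. Lats1 is on this list and on that of the YAP and TAZ targets, so its call is the same result counted in both. The call of Wtip held in 6 of 18 fits that left out 1 library. In fits that left out 1 library of 18, the call of Gas6 for space with gravity held in 13. Those for space without gravity held in 4 for Igfbp3, 7 for Junb, 12 for Fhl1 and 15 for Gas6. With the share of the 6 abundant genes as a covariate, none of the 12 calls of listed genes in the pair of comparisons held. That fit called 1 gene of all for space with gravity and 6 for space without gravity. The loss was thus not particular to the listed genes. The values themselves moved both ways under the covariate. Gas6 was at −4.49 in space without gravity and −3.90 in space with gravity, and in the latter Egr1 was at −4.35 and Cnn3 at −3.08, all larger than before. Lats1 was at 0.51, Wtip at −0.46, Igfbp3 at −0.71 and Fhl1 at 0.61 in space with gravity, all smaller. For gravity withdrawn and for nanoceria none of the 3 lists held a called gene.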

How the data were processed

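RNA sequencing libraries of polyadenylated RNA from C2C12 myoblasts were analysed, and the 18 small RNA samples were not analysed here. Each deposited file held the raw counts of 1 library by Ensembl gene, and the submitters' processing notes give the build GRCm38.p6. These notes also name CASAVA, Trimmomatic 0.36.29, STAR, Subread and featureCounts, without their roles. Use of strand and treatment of multi-mapping reads are not given in the sources used here.

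The count model was that of edgeR 4.0.16 (R 4.3.3): filterByExpr over the 6 groups (11558 of 49315 genes kept), TMM scaling, and a robust quasi-likelihood fit of group means over all 18 libraries (12 residual degrees of freedom), with Benjamini-Hochberg adjustment over all genes at 0.05. Contrasts were averaged over nanoceria or over regimes, and a quasi-likelihood F-test covered nanoceria effects unequal across regimes. The script was tested on simulated counts. Total counts ran from 23858 to 11378178, and the common biological coefficient of variation was 0.659. Alternatives used DESeq2 1.42.0, limma 3.58.1 and other filters, scalings and sets of libraries. A further list is not reported here. The members and lists were chosen with earlier results of these data known. By rule, the 10 members were named, with up to 2 called genes of each list per direction and comparison by p, and the 5 genes most alike in pattern.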

Additional observations from a re-analysis of the deposited data

How the results depend on the processing

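No paired analysis was possible because the labels give no replicate numbers, and those used here follow record order. The 10 genes in 4 comparisons made 40 results: of 342 values under other alternatives 315 kept direction and side of the threshold, 3 lost the threshold, 6 gained it and 18 reversed. Of 720 values without 1 library, 674 kept both, 8 lost it, 2 gained it and 36 reversed. The 12 results on other listed genes, whose alternatives were chosen after seeing the data, lost their call in 23 of the other alternatives and in 70 of the fits without 1 library, and none reversed. DESeq2 gave Gas6 no adjusted p. The causes of lost, gained or reversed results were not tested.

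The DESeq2 test called 2691 genes for space with gravity against land (2 of the 10 genes), 1524 for space without gravity against land (3 of the 10), 11 for gravity withdrawn, 1 for nanoceria and 8 for the differing nanoceria effect. DESeq2 size factors in edgeR called 2 of the 10 for space with gravity. Voom called 989 genes for space without gravity. With no filter 1466 genes passed for space without gravity (2 of the 10), 229 for gravity withdrawn, 214 for nanoceria and 551 for the differing effect. The compared groups alone, with fewer libraries, gave 1072 and 387 genes for space with and without gravity against land. The share of the abundant genes as a covariate gave 1 and 6 genes, and 0 of the 10 in both. Thbs1 in space with gravity lost its call with voom (−1.59, adjusted p 0.142) and with that covariate (−5.20, edgeR adjusted p 0.113), and in space without gravity it gained one with DESeq2 (−2.44, adjusted p 0.0100) and with no filter (−2.10, edgeR adjusted p 0.0132). Srf in space without gravity gained one with DESeq2 (−1.48, adjusted p 0.0457). Leaving out 1 library, the genes called ran from 459 to 1614 for space with gravity and from 82 to 713 for space without gravity, and the members from 0 to 2 and from 0 to 1.

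Reversals with DESeq2 size factors were Amotl2 at −0.055 in space with gravity, −0.041 in space without gravity and 0.014 for gravity withdrawn, and in the DESeq2 test −0.045, −0.042 and 0.0028. Voom reversed Cnn1 in space without gravity (0.87) and Thbs1 for nanoceria (0.37). A mean of at least 50 counts gave Thbs1 for nanoceria 0.059. Without the smallest library Ankrd1 and Lats2 for nanoceria were 0.060 and 0.10. The covariate reversed Acta2 (0.55), Tagln (0.35) and Yap1 (0.56) in space with gravity, Cnn1 (0.31) in space without gravity, Srf (−0.063) and Lats2 (0.25) for gravity withdrawn, and Thbs1 (0.22) for nanoceria. Without 1 library, Acta2 ran from −0.75 to 0.040 in space with gravity, and in space without gravity Tagln from −0.013 to 0.49, Cnn1 from −0.39 to 1.10 and Amotl2 from −0.11 to 0.37. For gravity withdrawn Srf ran from −0.074 to 0.97, Amotl2 from −0.41 to 0.18 and Lats2 from −0.38 to 0.055. For nanoceria Ankrd1 ran from −0.39 to 0.060, Yap1 from −0.35 to 0.27, Amotl2 from −0.13 to 0.26, Lats2 from −0.73 to 0.10 and Thbs1 from −0.59 to 1.02. With 3 libraries a group and a coefficient of variation of 0.659, small differences of scarce genes such as Cnn1 and Srf were beyond what these counts can show.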
